A study of Arabidopsis thaliana with 6 samples.

Results

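The cleavage and polyadenylation machinery was followed here as 30 genes, out of 31109 with deposited counts in Arabidopsis thaliana. They were taken by gene identifier and hold 60 of 39087 deposited transcripts, every isoform included. They encode the CPSF, CstF, CFI, CFII and FIP1 factors, symplekin, the poly(A) polymerases, the nuclear poly(A)-binding proteins, and the regulators FPA and FCA. Whole seedlings in the Col-0 background were sampled at 9 days, as cpsf30-1 mutants, nerd-1 mutants and the wild type (WT), with 2 libraries per genotype and no treatment named. The labels give neither the lesion of each mutant allele nor whether the 2 libraries of a genotype came from separate plants, so p-values measure the spread between these libraries, which may be technical. Each value counts the reads that fall within 500 bases beyond a transcript's annotated 3′ terminus. It is therefore a reading of what lies beyond an annotated end, not of the gene's expression as a whole. By RefSeq's TAIR10.1 models, some windows also lie on exons of the same gene and can hold its exon reads. This holds for all 500 bases past FPA AT2G43410.3 and 373 of those past CPSF30 AT1G30460.2. Transcription past the end, use of a later end, and RNA of a neighbouring gene cannot be told apart in such counts. In whole seedlings, fewer cells of a type and less RNA per cell cannot be told apart either.

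An mRNA 3′ end forms when CPSF and CstF bind signals in the nascent RNA, the endonuclease CPSF73 cuts it, and a poly(A) polymerase adds the tail that nuclear poly(A)-binding proteins then cover. CPSF30 is the zinc finger subunit of CPSF, and in plants a longer form of it also carries a YTH domain that reads methylated adenosines. FPA and FCA are RNA-binding proteins of the autonomous flowering pathway that promote the use of proximal poly(A) sites, including sites in their own transcripts. NERD, the gene named by the other mutant, acts in silencing guided by small RNAs.

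The sequences at several annotated ends show where the windows begin. Each is the last 30 bases of the transcript, read on its own strand from RefSeq's TAIR10.1 genome, and capitals mark AATAAA, the canonical poly(A) signal. They are shown for some of the members whose windows differed between genotypes or that have more than 1 annotated end. PAPS2 and CPSF73-I are not shown. The FPA and CPSF30 ends shown are those of AT2G43410.1 and AT1G30460.1. The windows of these genes that differed lie past other isoforms, AT2G43410.3, AT2G43410.4 and AT1G30460.2. CstF50 ends at chr5:24526084-24526113 on the plus strand, and the 30 bases after that end, chr5:24526114-24526143, are printed beside it. The other ends lie on the minus strand, at chr5:162550-162579 for ESP4, chr2:18025247-18025276 for FPA, chr1:6187465-6187494 for PAPS1, chr1:10770813-10770842 for CPSF30, chr4:9207164-9207193 for FCA AT4G16280.1 and chr4:9206597-9206626 for FCA AT4G16280.2.
CstF50 AT5G60940.1: gagtttcaactctattcaaatttataaacg
CstF50 past the end: gctaattAATAAAtgtttattaaaagaatc
ESP4 AT5G01400.1: ttgagttaagactttAATAAAagttttttt
FPA AT2G43410.1: tttttataaatcatacttcgtttcgaatct
PAPS1 AT1G17980.1: ctcaaacgttaaaacattgattcttagtta
CPSF30 AT1G30460.1: ccaaaatcataaccaccctcttcctcgtcc
FCA AT4G16280.1: caagaactcatgtggaagAATAAAgcttga
FCA AT4G16280.2: gatctatcaatttgtagtttcctgatcttc

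AATAAA was searched on the transcript's strand only, at the farthest annotated end of each gene. It stood in the last 30 bases of 2 of the 30 members, CstF77 and ESP4 (6.67%), against 5.92% of 30617 genes. Within the 500 bases past the end it stood in 11 members (36.7%), against 45.0% of genes. At CstF50 the letters were absent from the last 30 bases and began at base 8 past the annotated end. The match is a description of the letters, not of a site in use.

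The library totals ranged from 13973971 to 15382351 counts in cpsf30-1, from 13301722 to 13353807 in nerd-1, and from 11793952 to 18569498 in WT. Levels are given as CPM, the counts scaled to a common library size with TMM factors, and 3 counts correspond to 0.1665 to 0.2515 CPM, the limit that a count of 0 allows for counting error only. After the filter on low counts 41 of the 60 member windows, from 20 genes, were tested, and several isoforms of a gene repeat the same reads, so the 60 windows hold 46 distinct sets of counts. Many ends lie against other genes. By the reference models, 14 of the distinct windows touch no other gene, 21 touch a gene on the other strand only, and 11 touch a gene on the same strand. Summed over windows past shoot marker genes, cpsf30-1 had 1450 to 1630 CPM, nerd-1 960 to 1450 and WT 1500 to 2470, with all 5 markers above 0 in every library. Past root markers the sums were 38.9 to 55.8 CPM in cpsf30-1, 67.9 to 79.1 in nerd-1 and 59.3 to 66.6 in WT, with 3 of 5 above 0 in every library. The part of this difference in the results was not tested. Windows past 3 seed markers summed to at most 5.94 CPM in any library. Those past 3 flower markers summed to at most 0.137 CPM, and none of the 3 was above 0 in every library.

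In cpsf30-1, windows past 5 of the 20 tested machinery genes differed from WT. Those past CstF50, FPA and PAPS2 rose, and those past CPSF30 itself and PAPS1 fell. By edgeR's quasi-likelihood test with Benjamini-Hochberg adjustment over all windows, 9 of 41 member windows were called (22.0%), 6 higher and 3 lower, where 11.2% of all 19294 windows tested were called, 7.87% higher and 3.36% lower. By gene the shares were 25.0% of the members and 11.1% of all genes. Here a gene counts if any of its windows is called, and the members held more windows per gene. The 20 members had 41 tested windows, where 14549 genes had 19294. With 1 transcript per gene, 1 of 19 members and 1453 of 14151 genes were called. The median log2 fold change was -0.03 over the member windows and -0.04 over all windows, with 18 member windows above 0 and 23 below. At an unadjusted p under 0.05 there were 12 member windows (29.3%) and 5544 of all windows (28.7%). Leaving out any 1 of the 6 libraries gave 1 to 5 calls.

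**Figure D1:**
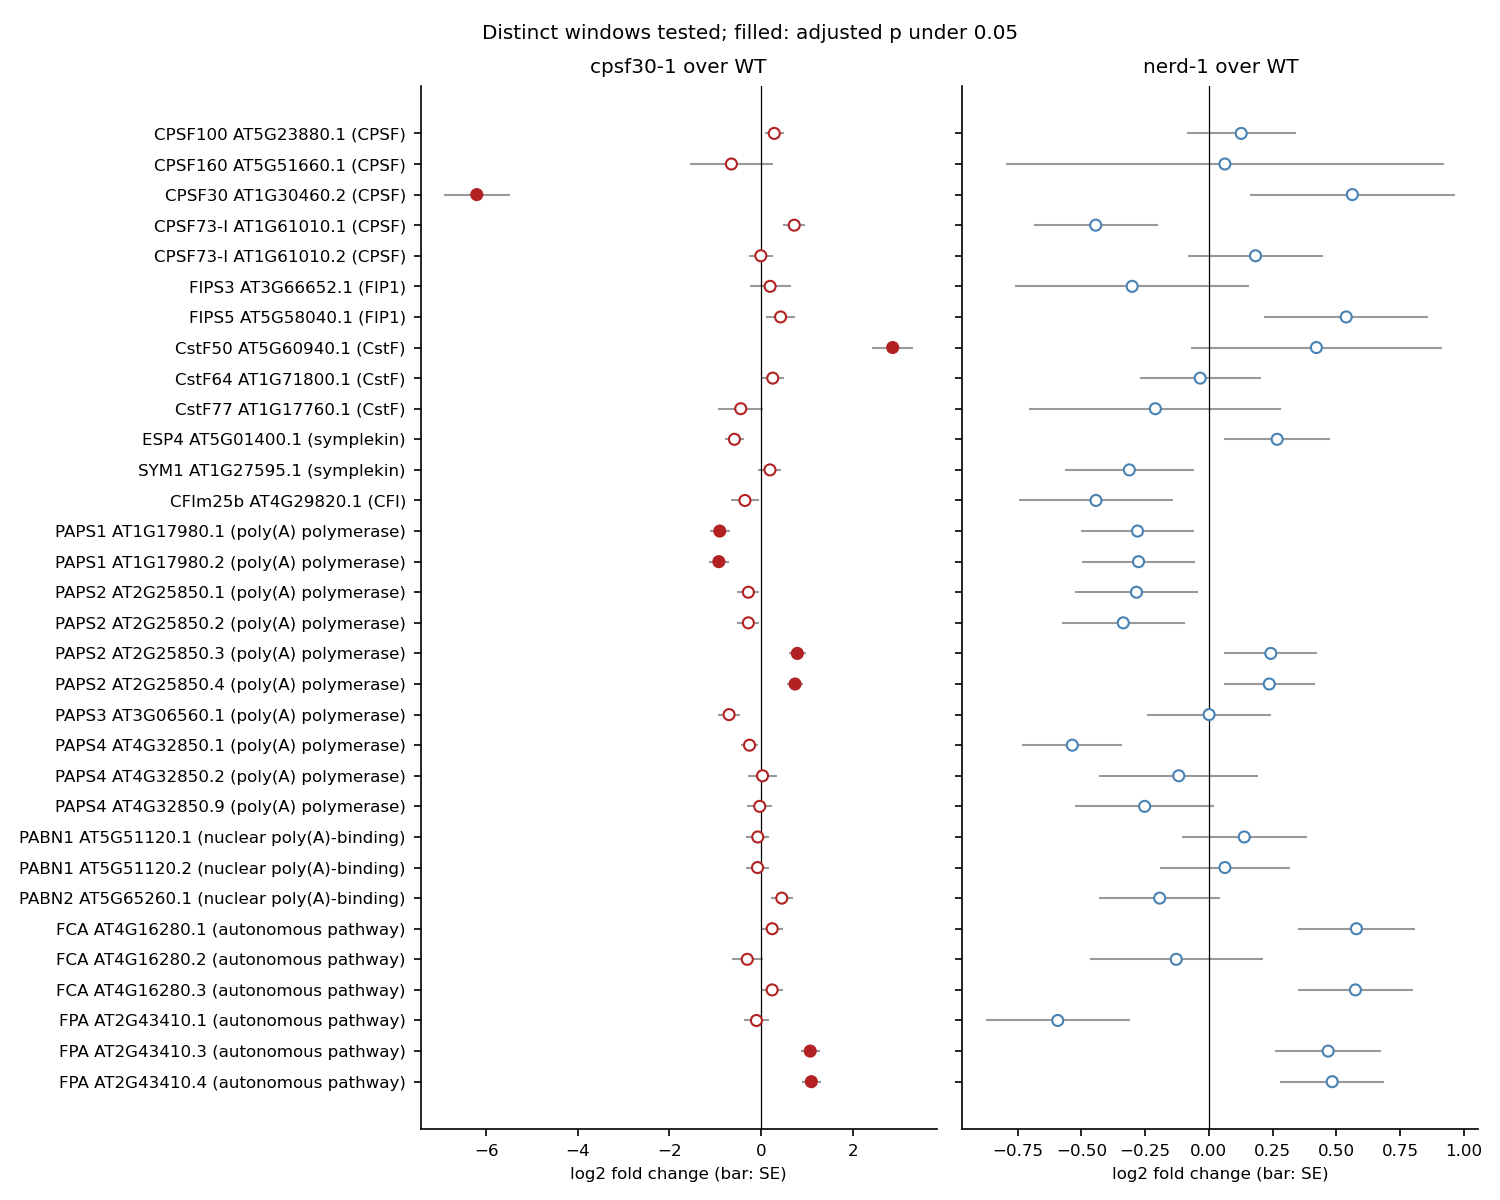
The log2 fold change of each of the 32 distinct member windows tested, with its SE as a bar, for cpsf30-1 over WT on the left and nerd-1 over WT on the right, ordered by factor. The horizontal axes differ between the panels. Filled points passed an adjusted p of 0.05: 8 distinct windows of 5 genes on the left and 0 on the right.

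**Figure D2:**
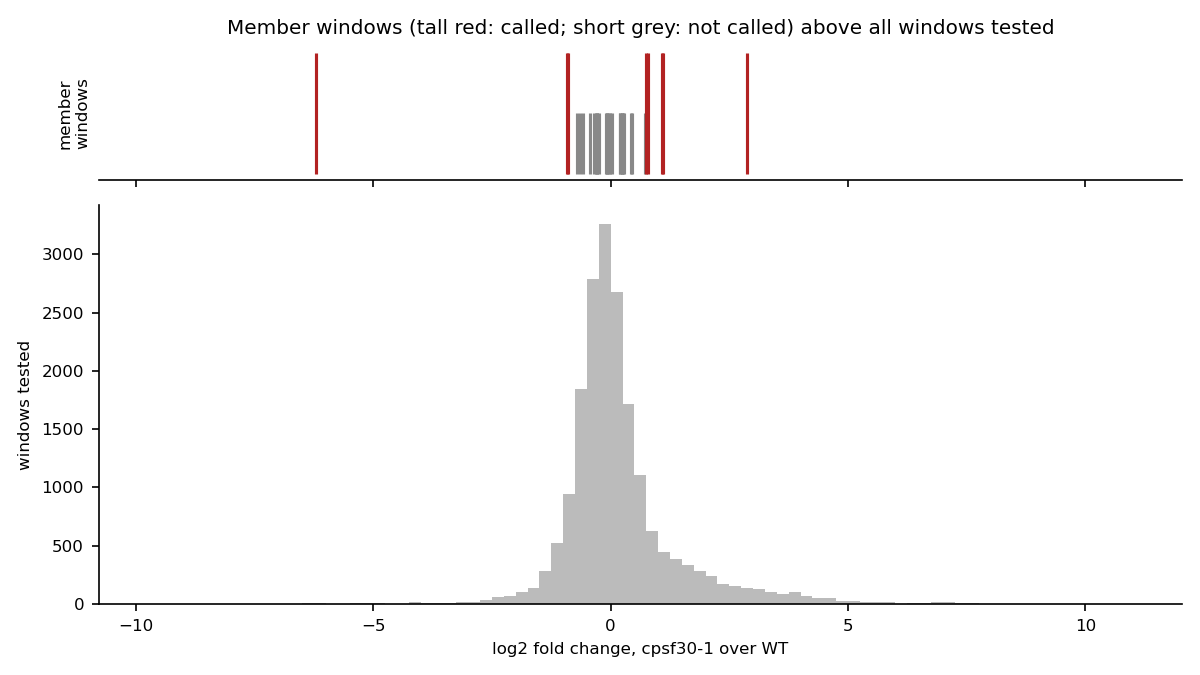
The lower panel counts all 19294 windows tested by log2 fold change in cpsf30-1 over WT, in steps of 0.25. Lines in the upper panel mark the 32 distinct member windows, tall red where called and short grey where not. CPSF30 at -6.20 and CstF50 at 2.87 stand farthest from 0.

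The CPSF30 window was the member most reduced in its own mutant. The window past isoform AT1G30460.2 held 1 and 0 counts in cpsf30-1 libraries, against 66 and 58 in those of nerd-1 and 43 and 49 in those of WT. The cpsf30-1 libraries lay far below all 4 others, and the nerd-1 libraries lay above WT in CPM (4.83 and 4.47 against 3.61 and 2.72) without passing the test (log2 fold change 0.56, adjusted p = 0.659). The ratio of cpsf30-1 to WT was 0.0111, with a 95% exact counting interval of 0.000278 to 0.0634, and the adjusted p was 0.00538. The call against WT held in each of the 12 alternatives that kept this isoform. The ratio of cpsf30-1 to nerd-1 was 0.00732 (0.000184 to 0.0415, adjusted p = 0.0035). That call was lost without nerd-1 replicate 1 or replicate 2. With 1 nerd-1 library left, almost all calls over the whole set of windows were lost as well. The loss therefore does not bear on CPSF30 in particular.

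The place of the CPSF30 reads is uncertain. The reference puts the window of AT1G30460.2 at chr1:10770686-10771185. By the same reference, 373 of its 500 bases are exon of CPSF30 itself, so exon reads of the gene and reads beyond it cannot be told apart there. A window past AT1G30455, on the other strand, shares 410 of the 500 bases. It held 3 and 2 counts in cpsf30-1, 4 and 2 in nerd-1, and 4 and 0 in WT. The 2 rows differ although they share most of their bases by the reference, while elsewhere rows of genes on opposite strands repeat the same counts. The strand setting of the counting is not given, so the position of these reads is left uncertain. The window past the other isoform, AT1G30460.1, held 4 and 16 counts in cpsf30-1, 3 and 4 in nerd-1, and 4 and 2 in WT, too few for the test.

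The other CPSF subunits had no call against WT. CPSF73-I, the endonuclease, has 2 distinct sets of counts, although the reference gives its 3 isoforms the same end, so the positions of these windows are not known. By the reference, the bases past that end lie on AT1G61000, on the same strand. Past AT1G61010.1, cpsf30-1 had 15.5 and 15.5 CPM, nerd-1 7.98 and 5.78, and WT 10.7 and 8.16. The cpsf30-1 libraries were the highest and the nerd-1 libraries the lowest, with no overlap between groups. The log2 fold change was 0.72 ± 0.24 (SE) against WT, which did not pass (adjusted p = 0.0946), and 1.17 ± 0.24 against nerd-1, which did (adjusted p = 0.0283). Leaving out any library of cpsf30-1 or nerd-1 ended the call against nerd-1, as it did most calls over all windows in that comparison. Past AT1G61010.2 the log2 fold change against WT was -0.01 (adjusted p = 0.992), and its counts were 100 and 82 in cpsf30-1, 109 and 80 in nerd-1, and 83 and 100 in WT. CPSF100, the partner of the endonuclease, had a log2 fold change of 0.29 against WT (adjusted p = 0.424). CPSF160, the scaffold, had at most 11 counts in any library and a log2 fold change of -0.65 (adjusted p = 0.688). Of the FIP1 homologues, which bridge CPSF and poly(A) polymerase, FIPS5 was nearer the threshold. It had 6.09 and 11.3 CPM in cpsf30-1, 9.37 and 9.40 in nerd-1, and 7.38 and 5.61 in WT. The groups overlapped (log2 fold change 0.43 against WT, adjusted p = 0.434).

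CstF50, the WD-repeat subunit of CstF, had the largest rise among the member windows tested. Its window held 64 and 76 counts in cpsf30-1, 9 and 14 in nerd-1, and 9 and 10 in WT. In CPM these were 4.38 and 5.16 in cpsf30-1, 0.659 and 1.08 in nerd-1, and 0.755 and 0.555 in WT. Both cpsf30-1 libraries lay above all 4 others, while nerd-1 and WT overlapped. The difference from WT was 7.31-fold (log2 fold change 2.87 ± 0.45, adjusted p = 0.0115). That from nerd-1 was 5.46-fold (2.45 ± 0.44, adjusted p = 0.0191). Both isoforms of CstF50 carry the same counts and give 2 of the 9 calls.

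The CstF50 window lies at chr5:24526114-24526613, and 369 of its 500 bases fall on AT5G60945, which begins 131 bases after the annotated end of CstF50 on the same strand. The window past AT5G60945 itself held 58 and 44 counts in cpsf30-1, 24 and 22 in nerd-1, and 5 and 79 in WT. Its WT libraries spanned the other 4, and it was not called (log2 fold change 0.48, adjusted p = 0.743). Reads that continue from CstF50 and reads that begin in AT5G60945 cannot be told apart. Without cpsf30-1 replicate 1 or 2 the adjusted p against WT was 0.061 or 0.0832, at a log2 fold change of 2.97 or 2.79. The call against nerd-1 was lost without any 1 library of cpsf30-1 or nerd-1, as were most calls over all windows in that comparison.

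The other CstF subunits were not called in any comparison. CstF64, which binds the RNA downstream of the cleavage site, had a log2 fold change of 0.25 against WT (adjusted p = 0.53). CstF77, the scaffold, had -0.44 (adjusted p = 0.607). The window past ESP4, a symplekin homologue, was called in cpsf30-1 against nerd-1 but not against WT. By the reference this window overlaps AT5G01390 on the same strand, so reads of ESP4 and AT5G01390 cannot be told apart. The ESP4 window had 9.37 and 9.71 CPM in cpsf30-1, 18.3 and 16.1 in nerd-1, and 12.8 and 15.7 in WT. The cpsf30-1 libraries were below all others and the nerd-1 libraries above all others. Its log2 fold change was -0.85 ± 0.21 against nerd-1 (adjusted p = 0.0452) and -0.58 ± 0.21 against WT (adjusted p = 0.119). The first was lost without any 1 library of cpsf30-1 or nerd-1, as were most calls over all windows in that comparison. It was also lost without the filter on low counts (adjusted p = 0.0647). SYM1, the other symplekin homologue, had 0.19 against WT (adjusted p = 0.664). CFIm25b, a homologue of the CFI subunit that binds UGUA letters upstream of the cut, had 15.6 and 10.11 CPM in cpsf30-1, 11.1 and 13.0 in nerd-1, and 13.0 and 19.8 in WT. The groups overlapped (log2 fold change -0.35 against WT, adjusted p = 0.489).

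**Figure D3:**
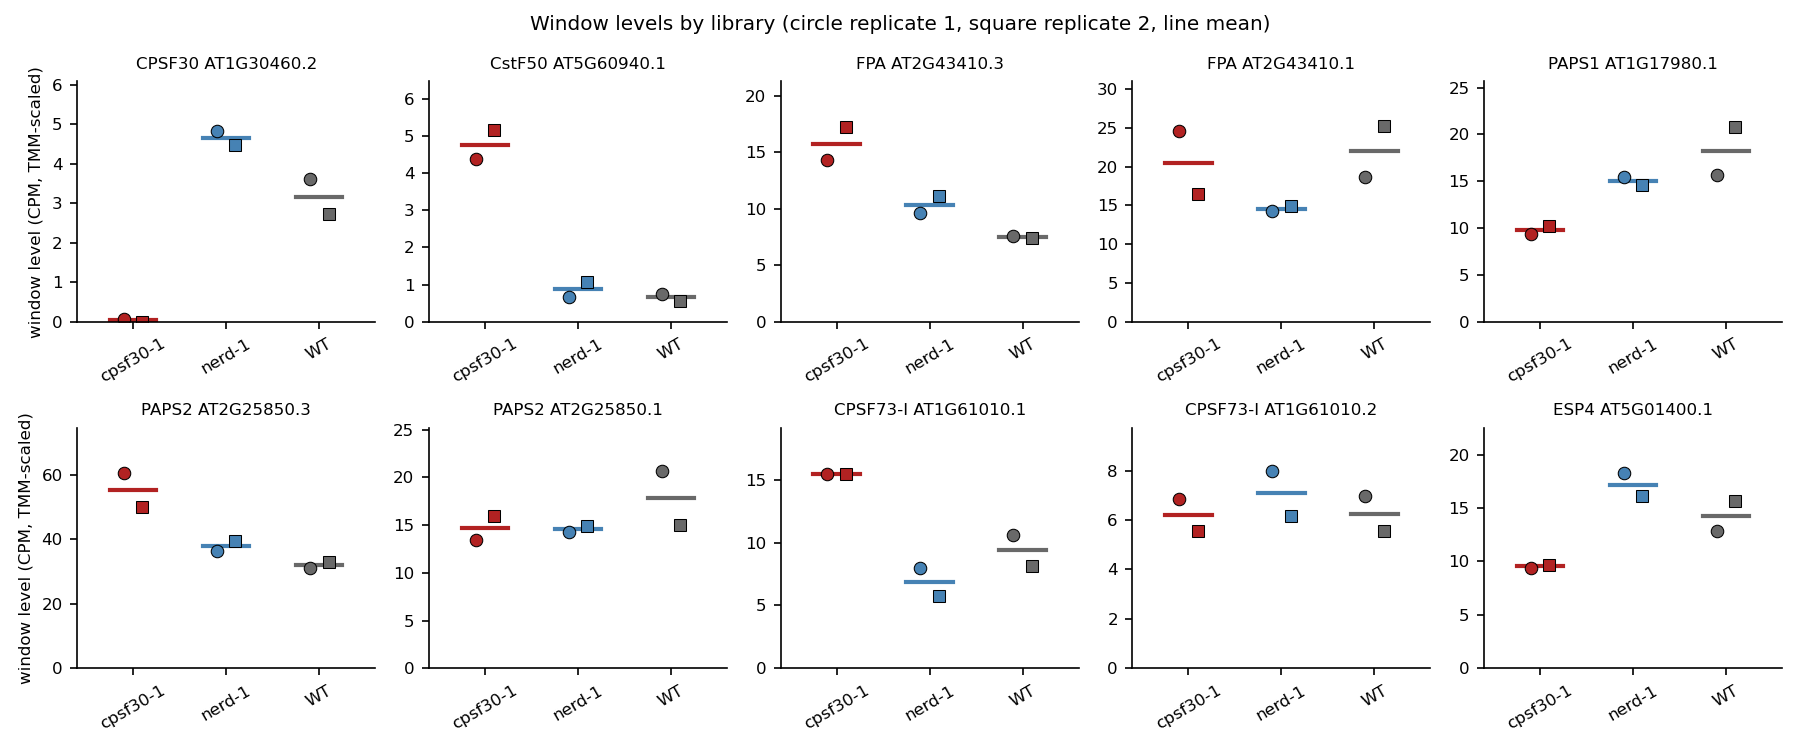
The level in CPM of 10 member windows in each library, with cpsf30-1, nerd-1 and WT side by side. Circles are replicate 1, squares replicate 2, and lines the mean of the 2. In the CPSF30 panel the cpsf30-1 points lie at 0.0684 and 0, and in the CstF50 panel the cpsf30-1 points, at 4.38 and 5.16, lie above the other 4.

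Among the poly(A) polymerases the window past PAPS1 fell and that past 1 pair of PAPS2 isoforms rose, while the others did not pass the test. PAPS1 is a canonical nuclear poly(A) polymerase. Past AT1G17980.1 there were 137 and 150 counts in cpsf30-1, 211 and 190 in nerd-1, and 187 and 375 in WT. In CPM these were 9.37 and 10.2 in cpsf30-1, 15.5 and 14.7 in nerd-1, and 15.7 and 20.8 in WT. The cpsf30-1 libraries were below all others, and nerd-1 lay just under WT. The log2 fold change against WT was -0.90 ± 0.22 (adjusted p = 0.0446), a level 1.87-fold lower in cpsf30-1. The window past AT1G17980.2, which holds nearly the same reads, gave -0.92 (adjusted p = 0.0415). Both windows lie on AT1G17970, which runs on the other strand. The window past AT1G17970 lies by 376 bases on PAPS1 exons, and held 284 and 340 counts in cpsf30-1, 271 and 277 in nerd-1, and 218 and 337 in WT (log2 fold change 0.20, adjusted p = 0.602). For AT1G17980.1, leaving out any 1 library other than WT replicate 1 ended the call, at an adjusted p of 0.128 to 0.166, as did dropping the filter on low counts (adjusted p = 0.0594).

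PAPS2, a further nuclear poly(A) polymerase, has windows of unlike behaviour. Past AT2G25850.3 there were 885 and 736 counts in cpsf30-1, 495 and 511 in nerd-1, and 370 and 592 in WT. In CPM these were 60.6 and 50.0 in cpsf30-1, 36.2 and 39.4 in nerd-1, and 31.0 and 32.9 in WT. The order cpsf30-1, nerd-1, WT held in every library, with no overlap. The rise over WT was 1.73-fold (log2 fold change 0.79 ± 0.18, adjusted p = 0.0355), and AT2G25850.4, with nearly the same reads, gave 0.74 (adjusted p = 0.0404). Against nerd-1 the log2 fold change of AT2G25850.3 was 0.55 (adjusted p = 0.0963). Leaving out any 1 of the 6 libraries ended the call against WT, at an adjusted p of 0.0901 to 0.221, as did dropping the filter on low counts (adjusted p = 0.0689). Past AT2G25850.1 the counts were 196 and 235 in cpsf30-1, 195 and 194 in nerd-1, and 246 and 271 in WT. This window was not called (log2 fold change -0.28, adjusted p = 0.495).

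The rows of PAPS2 isoforms AT2G25850.1 and AT2G25850.2 repeat, within 10% or 3 counts in every library, the row of OVA4, the neighbour on the other strand, which held 199 and 240 counts in cpsf30-1, 190 and 196 in nerd-1, and 246 and 277 in WT. Reads of the 2 genes cannot be told apart there, and the isoform counts of PAPS2 do not match its reference ends. By the reference, these PAPS2 windows lie at chr2:11024845-11025344 and that of OVA4 at chr2:11025371-11025870, without overlap. The positions of the PAPS2 windows are therefore not known. PAPS3, a cytoplasmic polymerase, had 8.14 and 12.01 CPM in cpsf30-1, 16.1 and 16.7 in nerd-1, and 15.3 and 17.4 in WT. Its cpsf30-1 libraries lay below the others, but the log2 fold change of -0.70 against WT did not pass (adjusted p = 0.111). PAPS4, a nuclear polymerase, has 3 distinct windows tested, with log2 fold changes of -0.25, 0.03 and -0.03 against WT (adjusted p = 0.445, 0.962 and 0.958). The isoform counts of PAPS4 do not match its reference ends either, so the positions of these windows are not known. Of the 13 polymerase windows tested, 2 were called higher and 2 lower, where 7.87% and 3.36% of all windows were, and each pair holds nearly the same reads.

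FPA rose past its shorter annotated ends, while the windows past its longer ends did not pass the test. Past AT2G43410.3 there were 209 and 254 counts in cpsf30-1, 132 and 144 in nerd-1, and 91 and 133 in WT. In CPM these were 14.3 and 17.2 in cpsf30-1, 9.66 and 11.1 in nerd-1, and 7.63 and 7.38 in WT. The 3 genotypes did not overlap, with cpsf30-1 highest and WT lowest. The rise over WT was 2.1-fold (log2 fold change 1.07 ± 0.21, adjusted p = 0.021). The window past AT2G43410.4, with nearly the same reads, gave 1.096 (adjusted p = 0.0187) and is not a separate observation. The reference puts these 2 windows at chr2:18025422-18025921 and chr2:18025040-18025539. With nearly equal counts at such different places, their positions are uncertain. Against nerd-1 AT2G43410.3 had 0.60 (adjusted p = 0.101). The call against WT held without cpsf30-1 replicate 1 and was lost without any 1 of the other 5 libraries, at an adjusted p of 0.0537 to 0.0769. Past the longer ends, AT2G43410.1 and AT2G43410.2, the shared counts were 359 and 242 in cpsf30-1, 195 and 193 in nerd-1, and 223 and 455 in WT. There the cpsf30-1 and WT libraries overlapped (log2 fold change -0.10, adjusted p = 0.852).

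All 500 bases past AT2G43410.3 are exon of longer FPA isoforms in the reference. They also hold 371 of the 500 bases past ETFQO, which faces FPA on the other strand. The ETFQO row held 213 and 254 counts in cpsf30-1, 127 and 142 in nerd-1, and 87 and 129 in WT, the same as the row of AT2G43410.3 within 10% or 3 counts. It was called as well (log2 fold change 1.14, adjusted p = 0.017). Reads of FPA and reads running past ETFQO cannot be told apart. At the other end of FPA, a window past AT2G43420 lies by 488 bases on FPA exons and held 599 and 467 counts in cpsf30-1, 607 and 536 in nerd-1, and 546 and 769 in WT, with no call (log2 fold change -0.28, adjusted p = 0.384). Across the 30 members, 18 distinct windows of neighbours lie on member exons by the reference. Of these, 14 were tested, and 1 was called in cpsf30-1 against WT, where 11.2% of all windows tested were called. That 1 is the ETFQO row, which repeats the counts of FPA AT2G43410.3 and is not a separate result.

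**Figure D4:**
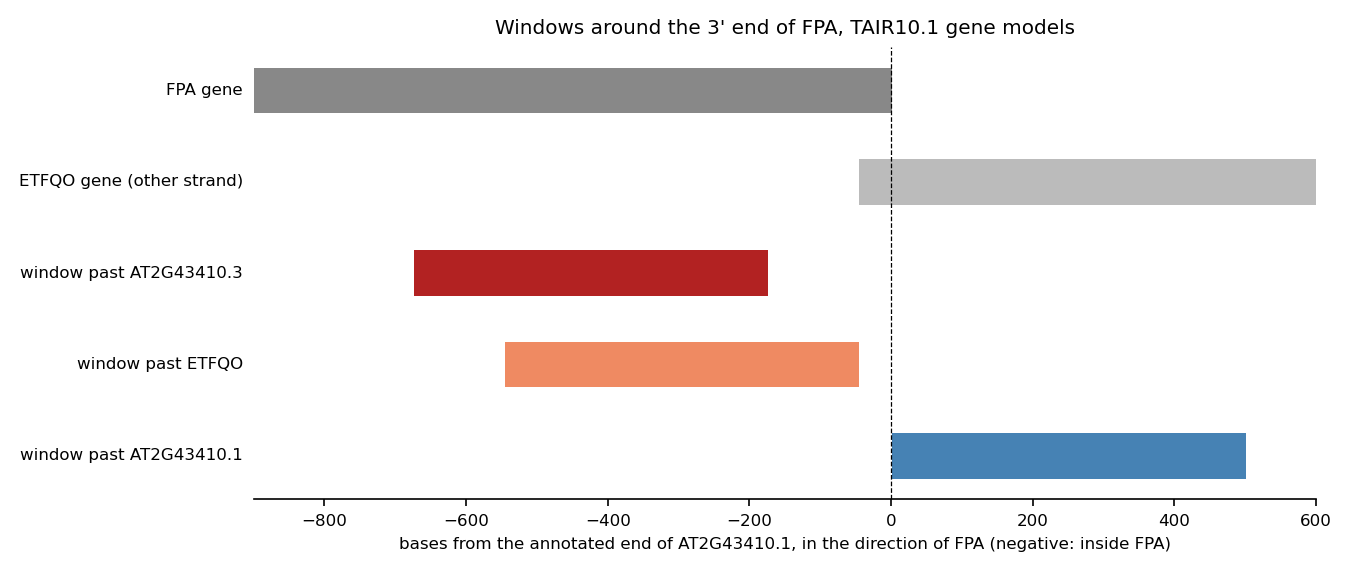
The 3′ end of FPA drawn to scale from the reference models, with bases from the annotated end of AT2G43410.1 on the horizontal axis. Positions inside FPA are negative values. The window past AT2G43410.3 lies 175 to 674 bases inside FPA and shares 371 bases with the ETFQO window, and that past AT2G43410.1 lies on ETFQO. The ends of both genes are cut by the plot's edges.

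FCA, which acts in the same pathway, was not called. Past AT4G16280.1 there were 14.2 and 18.3 CPM in cpsf30-1, 21.3 and 19.7 in nerd-1, and 14.3 and 13.1 in WT, and past AT4G16280.2 there were 3.28 and 3.67 in cpsf30-1, 4.83 and 3.01 in nerd-1, and 4.78 and 3.83 in WT. The cpsf30-1 libraries overlapped WT in the first of these windows (log2 fold change 0.24, adjusted p = 0.533). In the second the log2 fold change was -0.30 (adjusted p = 0.61). The row of AT4G16280.1 repeats that of AT4G16270 on the other strand within the same tolerance. Among the nuclear poly(A)-binding proteins, PABN2 had 30.9 and 43.6 CPM in cpsf30-1, 22.6 and 25.1 in nerd-1, and 26.6 and 27.9 in WT. Both cpsf30-1 libraries were above all others, without a call (log2 fold change 0.45 against WT, adjusted p = 0.259). The 2 distinct windows of PABN1 had log2 fold changes of -0.07 and -0.08 against WT.

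Of the 30 members, 10 had no window with enough reads for the test. They were FY and CPSF73-II of CPSF, ESP1, the CstF64-like protein, CFIm25a of CFI, PABN3, and all 5 CFII genes, which are the PCF11 homologues PCFS1, PCFS4 and PCFS5 and the CLP1 homologues CLPS3 and CLPS5. FY is the CPSF subunit that partners FCA. Over the 19 windows not tested, counts ran from 0 to 35, and from 0 to 16 without cpsf30-1 replicate 1. In the fit without the filter, 0 of the 19 were called in each of the 3 comparisons, and 1, CFIm25a, had an unadjusted p under 0.05 in cpsf30-1 against WT (adjusted p = 0.0927) and against nerd-1 (adjusted p = 0.0801). DESeq2 also called 0, and gave an adjusted p for 5 of the 19 in cpsf30-1 against WT. The highest of those counts belongs to CFIm25a, with 35 and 6 counts in cpsf30-1, 2 and 1 in nerd-1, and 2 and 2 in WT. In cpsf30-1 replicate 1 each of its 10 neighbouring windows also held at least 30 counts, while the lowest of them held 0 or 1 in every other library. The value therefore stands in a stretch that is raised in 1 library.

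In nerd-1, 0 of 41 member windows were called against WT, where 0.0518% of all windows were called (10 of 19294, 0.0104% higher and 0.0415% lower) and 0.0481% of all genes. At an unadjusted p under 0.05 there were 6 member windows (14.6%) and 1911 of all windows (9.9%), and DESeq2 also called 0 members. The 6 are 3 rows of PAPS4 with identical counts, 2 nearly identical rows of FCA, and 1 of FPA. The median log2 fold change was -0.12 over the members and -0.01 over all windows. The widest member values were FPA AT2G43410.1 at -0.59 (adjusted p = 0.537) and FCA AT4G16280.1 at 0.58 (adjusted p = 0.475). The WT libraries also serve the comparison of cpsf30-1.

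The direct comparison of the mutants called 5 of 41 member windows in cpsf30-1 against nerd-1 (12.2%), 3 higher and 2 lower, where 11.1% of all windows were called, 7.42% higher and 3.63% lower. By gene, counting a gene if any of its windows was called, the shares were 20.0% of the members and 11.0% of all genes. With 1 transcript per gene, 2 of 19 members and 1503 of 14151 genes were called. CstF50, in both isoforms, and CPSF73-I AT1G61010.1 were higher in cpsf30-1, and CPSF30 AT1G30460.2 and ESP4 were lower, with the values given above. The windows called against WT past FPA, PAPS1 and PAPS2 were not called against nerd-1, where their log2 fold changes had the same sign. The member share is near that of all windows, and leaving out any 1 library gave 0 to 5 calls.

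A shift of reads between windows of the same gene was tested for the 7 members with at least 2 distinct windows past the filter on low counts, among 1813 genes in all. CPSF30, FY and PABN3 also have more than 1 distinct window but were left out by the filter. The Simes test of edgeR called 0 members in cpsf30-1 against WT, where 0.883% of genes (16) were called, and 0 in nerd-1 against WT, where 0.0% were called. At an unadjusted p under 0.05 it gave 0 members in both, and 92 of all genes (5.07%) in cpsf30-1 and 14 (0.772%) in nerd-1. In the fit without the filter the Simes test took in 10 members, CPSF30, FY and PABN3 among them. It called 0 of them in both comparisons. An F-test per gene, added after the data were seen, called PAPS2 in cpsf30-1 against WT (adjusted p = 0.0258), where 2.1% of genes (38) were called. That call held without WT replicate 2 (adjusted p = 0.0432) and was lost without any 1 of the other 5 libraries, at an adjusted p of 0.0859 to 0.551. By that test FPA had an adjusted p of 0.0583 in cpsf30-1 and 0.529 in nerd-1, and CPSF73-I had 0.546 in cpsf30-1.

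The counts behind these tests are clearest as ratios between 2 windows in each library. For PAPS2, AT2G25850.3 over AT2G25850.1, the ratio was 4.52 and 3.13 in cpsf30-1, 2.54 and 2.63 in nerd-1, and 1.5 and 2.18 in WT. Every cpsf30-1 library exceeded every other library. For FPA, AT2G43410.3 over AT2G43410.1, it was 0.582 and 1.05 in cpsf30-1, 0.677 and 0.746 in nerd-1, and 0.408 and 0.292 in WT. Both mutants lay above WT and overlapped each other. For CPSF73-I, AT1G61010.1 over AT1G61010.2, whose positions are not known, it was 2.26 and 2.78 in cpsf30-1, 1.0 and 0.938 in nerd-1, and 1.53 and 1.47 in WT, so that cpsf30-1 lay above WT and nerd-1 below it. For FCA, AT4G16280.1 over AT4G16280.2, it was 4.31 and 4.98 in cpsf30-1, 4.41 and 6.54 in nerd-1, and 3.0 and 3.42 in WT. Both mutants lay above WT here too. For PAPS4, AT4G32850.1 over AT4G32850.2, the positions are not known either. The ratio was 2.28 and 2.95 in cpsf30-1, 1.92 and 2.95 in nerd-1, and 2.76 and 3.52 in WT, and the 3 genotypes overlapped. Since several of these windows share reads with a gene on the other strand, a ratio can move with either gene.

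**Figure D5:**
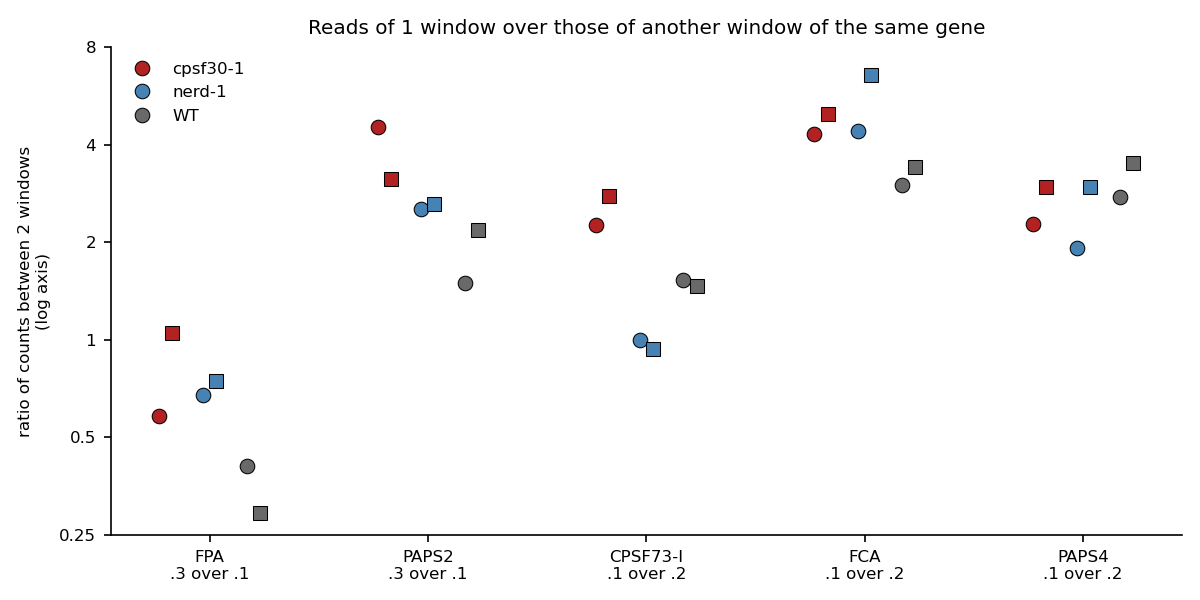
The ratio of counts between 2 windows of the same gene in each library, on a log axis, for 5 members. Circles are replicate 1 and squares replicate 2, with cpsf30-1, nerd-1 and WT from left to right for each gene. The PAPS2 points of cpsf30-1, at 4.52 and 3.13, lie above those of nerd-1 and WT.

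Other genes of 3′ end formation and transcription termination, among them the nuclear exonucleases XRN2 and XRN3, the BORDER proteins BDR1 to BDR3, and further autonomous pathway genes such as FLD and FVE, gave a list of 13. Of its 18 windows 12, from 10 genes, were tested. In each of the 3 comparisons 0 were called. Of all windows, 11.2% were called in cpsf30-1 against WT, 0.0518% in nerd-1 against WT and 11.1% in cpsf30-1 against nerd-1. With 12 windows, counts of 0 do not set this list apart from all windows. The median log2 fold changes were 0.09 in cpsf30-1 against WT, -0.21 in nerd-1 against WT and 0.05 in cpsf30-1 against nerd-1. The window past NERD held 3 and 0 counts in cpsf30-1 and 0 in each library of nerd-1 and WT, so it does not check the nerd-1 label.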

How the data were processed

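Seedling RNA was sequenced in 6 libraries, as stranded polyA libraries per the labels. The authors deposited whole-number counts per transcript, not normalised, from the 500 bases beyond its 3′ end. Per the submitters' processing notes the build was TAIR10, and the tools named are TopHat2 2.0.7, Bowtie2 2.3.4, Cuffdiff, and Cufflinks 2.2.1. Which counter and strand setting were used is not given in the sources used here. All 39087 transcripts were fitted in edgeR 4.0.16 (R 4.3.3, limma 3.58.1) after its expression filter (19294 tested) with TMM factors of 0.9606 to 1.049, 1 mean per genotype and a two-sided quasi-likelihood F-test with 3 residual degrees of freedom. Calls are adjusted p under 0.05 over all windows, and SE is that of the log2 fold change. Window use was tested with diffSpliceDGE after isoforms with identical counts were collapsed. Positions come from RefSeq's TAIR10.1 models, matched to 38526 transcripts, and are approximate: isoforms had identical counts exactly where the reference gives them the same end in 7 members, not so in 6, and 17 have 1 isoform. The scripts were tested on simulated data. DESeq2 1.42.0 was an alternative. The members and lists were chosen with earlier results of these data known. Values are given for every member window called in any comparison, for CPSF30, and for the smallest p in each factor. Others are descriptions.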

Additional observations from a re-analysis of the deposited data

How the results depend on the processing

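Counts of calls varied with the fit, and the cause was not tested. Where a library was left out, the lone library of its genotype was assumed to vary like the other groups. For cpsf30-1 against WT, 9 member windows were called, and 5 without the filter on low counts, 1 with 1 transcript per gene, 5 with only the 4 libraries compared, and 1 to 5 when a library was left out. Over all windows the count was 2166, with 1281 from the 4 libraries, and 452 to 1342 when a library was left out. For nerd-1 against WT the members stayed at 0 under every alternative. All windows gave 10, and 207 with DESeq2, 172 without the filter, 6 with 1 transcript per gene, 0 from 4 libraries and 0 to 172 when a library was left out. For cpsf30-1 against nerd-1 the members gave 5, and 2 with 1 transcript per gene and 0 to 5 when a library was left out. All windows gave 2132, and 3269 from 4 libraries and 0 to 2375 when a library was left out. For window use in cpsf30-1 against WT, the Simes test called 0 members, also when any library was left out. The F-test per gene called 1, PAPS2, and its call held in 1 of the 6 fits that left out a library.

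The labels number the replicates, but same-numbered libraries did not deviate together. For cpsf30-1 and WT the correlation was -0.314, so there same-numbered libraries tended to deviate in opposite directions. It was 0.000961 for nerd-1 and WT and -0.00899 for cpsf30-1 and nerd-1. With the replicate block the member calls were 3, 0 and 1 and those of all windows 853, 0 and 552 in cpsf30-1 against WT, nerd-1 against WT and cpsf30-1 against nerd-1. A crossed pairing, chosen after seeing the data, gave 10, 0 and 5 member calls and 3297, 50 and 3548 over all windows.

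Among the named windows, 443 of the results recomputed kept their direction and side of the threshold, 75 lost their call, and 4 changed sign, none of them called. Most of the 443 belong to windows not called in that comparison to begin with, so they do not measure how stable the calls were. Every call was lost in at least 1 alternative, except that of CPSF30 AT1G30460.2 against WT. With 1 library left out, FIPS5 ranged from -0.041 (without cpsf30-1 replicate 2) to 0.79 in cpsf30-1 against WT, and from -0.566 to 0.266 (without cpsf30-1 replicate 1) in cpsf30-1 against nerd-1. CFIm25b ranged from -0.253 (without cpsf30-1 replicate 1) to 0.426 in cpsf30-1 against nerd-1, with -0.044 without nerd-1 replicate 1. Depth limits the 10 members with too few reads for the test.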
